A study of Mus musculus with 8 samples.

Results

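The aldo-keto reductases of family 1 described here are 9 mouse genes: Akr1a1, Akr1b3, Akr1b7, Akr1b8, Akr1c12, Akr1c13, Akr1c14, Akr1c19 and Akr1c20. They were picked by name, and their probes were found through the accession each probe carries. Of the 9 genes, 8 had a probe and were measured, with 9 probes in all; Akr1c20 matched no probe. The 8 genes stand among 14322 genes tested over the whole array.

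RNA of 8 hepatocellular carcinomas was measured against liver RNA on 8 arrays of 2 colours, with 1 tumor per array and all arrays on 1 slide. The tumors came from male mice with a knockout of miR-122, the main microRNA of hepatocytes. The livers came from age-matched males that carried the floxed miR-122 gene, and the protocol calls these mice wild type. Both groups had a mixed C57BL/6J and 129S/Svj background, and the labels state no age in numbers and no further treatment. Tumor RNA was labelled with Cy5 and control RNA with Cy3 on every array, so a dye effect and a tumor effect cannot be told apart. The labels number the tumors without naming an animal. They also leave unsaid whether each array had its own control animal or all shared pooled RNA, so p-values measure the spread between these arrays only. No knockout liver free of tumor was among the samples, and loss of the microRNA and tumor growth cannot be told apart.

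Aldo-keto reductases use NADPH or NADH to turn aldehydes and ketones into alcohols, or run the reverse reaction. The Akr1b enzymes act on sugars, retinaldehyde and aldehydes from lipids. The Akr1c enzymes act largely on steroids and prostaglandins, several of them as dehydrogenases of hydroxysteroids. In liver they take part in clearing reactive carbonyls and in inactivating steroid hormones, and several members of the family in mouse and human are known targets of NRF2, the factor that answers oxidants and electrophiles.

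All 8 measured genes were well above background, by the scanner software's flag, in both channels of all 8 arrays. The share of all probes well above background was 38.5% to 51.9% in the tumor channel and 45.1% to 54.3% in the control channel. Tumor 8 stood apart: its Cy5 signal was the dimmest, and its ratios correlated least with those of the other arrays across genes (mean r 0.528, highest of the arrays 0.74). The control RNA on array 8 also held skeletal muscle transcripts, with all 8 muscle markers above background, against 0 to 2 on the other arrays. In its tumor channel 7 of the 8 were above background, against 0 or 1 on the other arrays, and their summed linear intensity was 4820 in tumor 8 and 74700 in its control. Of 9 measured hepatocyte markers, all were above background in both channels of all arrays. Their summed level, on the linear intensity scale, was 632000 to 874000 in the tumor channel and 1020000 to 1340000 in the control channel. In bulk RNA, fewer cells of a type and less RNA per cell cannot be told apart.

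The Akr1c genes lie side by side on chromosome 13, and the 250 bases before the start sites of 4 of them are shown because this group held both the closest pair of genes and the gene that fell. The sequences are those of RefSeq on build GRCm38.p6, read 5′ to 3′ on the gene's own strand. Capitals mark matches, on either strand, to TTAAT, any base, then ATTA, the core of the site bound by the liver factor HNF1. Of the 8 measured genes, 7 had an entry (Akr1b3 had none).

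Akr1c12: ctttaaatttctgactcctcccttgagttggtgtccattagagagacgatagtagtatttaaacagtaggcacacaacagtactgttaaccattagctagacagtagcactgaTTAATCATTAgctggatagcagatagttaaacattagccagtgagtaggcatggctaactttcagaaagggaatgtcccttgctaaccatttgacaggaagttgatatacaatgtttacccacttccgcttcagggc
Akr1c13: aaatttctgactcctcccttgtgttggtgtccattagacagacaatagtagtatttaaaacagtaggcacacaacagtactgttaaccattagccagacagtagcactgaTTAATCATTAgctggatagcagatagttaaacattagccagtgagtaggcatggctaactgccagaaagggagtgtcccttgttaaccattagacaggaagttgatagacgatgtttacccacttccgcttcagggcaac
Akr1c19: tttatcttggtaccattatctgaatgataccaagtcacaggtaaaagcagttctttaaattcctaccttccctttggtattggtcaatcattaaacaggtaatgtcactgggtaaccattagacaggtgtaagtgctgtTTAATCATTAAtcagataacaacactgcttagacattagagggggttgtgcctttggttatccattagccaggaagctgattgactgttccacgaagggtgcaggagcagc
Akr1c14: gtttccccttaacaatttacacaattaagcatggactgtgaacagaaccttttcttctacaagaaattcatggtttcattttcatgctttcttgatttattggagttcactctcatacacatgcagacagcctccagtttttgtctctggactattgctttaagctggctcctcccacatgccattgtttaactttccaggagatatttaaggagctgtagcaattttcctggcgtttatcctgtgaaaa

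These windows are chr13:4279400-4279649 on the minus strand for Akr1c12, and chr13:4190937-4191186, chr13:4233490-4233739 and chr13:4059341-4059590 on the plus strand for Akr1c13, Akr1c19 and Akr1c14. The windows of Akr1c12 and Akr1c13 were 95.5% identical, at 235 of 246 aligned bases. The other 20 pairs among the 7 windows were 55.2% to 69.9% identical. The capital letters begin 137 bases before the start of Akr1c12 (position -137), at -140 in Akr1c13 and at -111 in Akr1c19, where matches on both strands overlap. This motif was looked for after the sequences had been seen, and 0.387% of 32851 RefSeq promoter windows hold it on either strand. The window of Akr1c14 holds no match, and neither do those of Akr1a1, Akr1b7 and Akr1b8. The antioxidant response element TGACNNNGC, the site that NRF2 binds, was in 10.2% of all windows on either strand and in none of the 7 windows. A match or its lack describes these letters in this window only.

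The question of the comparison was which Akr1 genes differ between carcinoma of miR-122 knockout mice and control liver. Akr1b7 and Akr1b8 were higher in tumor and Akr1c14 was lower, while the other 5 genes did not pass both thresholds. To be called, a gene needed a limma p under 0.05 after Benjamini-Hochberg adjustment over all genes and a ratio of at least 2-fold, which is 1 on the log2 scale. By the same rule 9.53% of all genes were called higher in tumor and 5.93% lower. Counts of 2 and 1 among 8 genes are too small to set the family apart from all genes. The median log2 ratio of the 8 genes was -0.26, against 0.03 over all genes tested. All 8 tumor levels lay above all 8 control levels in 1 gene, Akr1b8, an ordering found in 8.32% of all genes. No member had all tumor levels below all control levels, which 8.42% of all genes did. The ratios had the same sign on all 8 arrays in 4 of the genes.

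**Figure D1:**
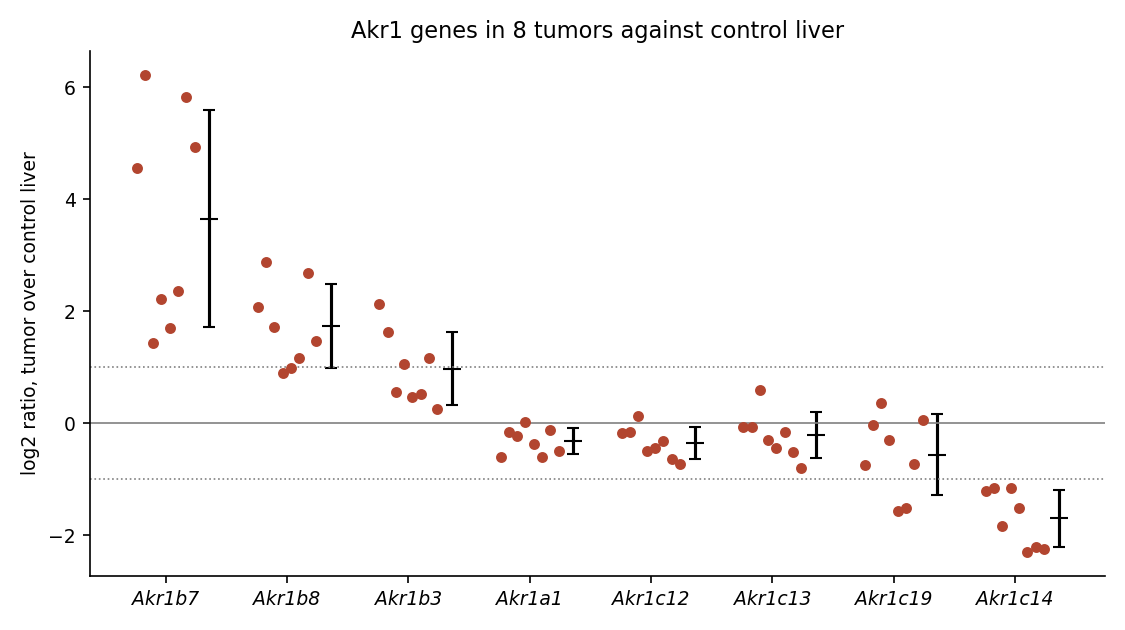
Log2 ratio of tumor over control liver for 8 Akr1 genes; each point is 1 array, with tumors 1 to 8 from left to right within a gene, the bar shows mean ± SD, and the dotted lines mark a ratio of 2-fold either way. Akr1b7 and Akr1b8 lie above 0 on all arrays and Akr1c14 lies below -1 on all arrays, while Akr1c13 and Akr1c19 lie on both sides of 0.

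Akr1b7 had the largest ratio and the largest spread of the 8 genes. Its enzyme reduces the aldehyde that is left when the side chain of cholesterol is cut off in steroid synthesis. It is best known from mouse adrenal cortex and vas deferens. The normalized level, a log2 intensity, was 7.76 at the lowest, 10.19 at the median and 16.63 at the highest in tumors, against 6.33, 6.82 and 10.40 in control liver. Tumors 2, 7 and 8 were far above the others, at 16.63, 15.92 and 14.77, and tumor 1 had 11.46. The control channel was also high on arrays 2, 7 and 8, at 10.40, 10.10 and 9.84, against 6.33 to 6.90 on the other 5 arrays. Each tumor nevertheless exceeded the control on its own array.

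The mean log2 ratio of Akr1b7 was 3.66 ± 1.94 (SD, n = 8), or 12.6-fold, with an adjusted p of 6.86e-04 by limma. The ratios fell into separate clusters of 4 arrays each, with tumors 1, 2, 7 and 8 at 4.56, 6.23, 5.82 and 4.93. Tumors 3, 4, 5 and 6 had ratios of 1.43, 2.22, 1.70 and 2.37. A gap of over 0.4 of the range with at least 3 arrays on each side was taken as a split, a limit set after the data had been seen. The net control signal was 6 to 28.5 on arrays 3 to 6 and 45 on array 1. All 5 values lay below the offset of 50 that was added, which draws ratios there toward 0. How far the split follows from that floor was not tested. Without tumors 7 and 8 the ratio was 3.08 (adjusted p = 0.00389 by limma). It kept its call with each single array left out, at 3.29 to 3.98. The slide has 2 rows of 4 arrays, and the ratio was 3.61 in row 1 alone and 3.71 in row 2 alone.

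In net scanner signal, the Cy3 signal of the Akr1b7 probe was 0.881% to 8.78% of its Cy5 signal on the same spot. This share did not split the arrays in the same way, with 2.99% and 1.81% on arrays 3 and 4 and 1.84% and 4.95% on arrays 7 and 8. On array 2 the net signal was 136715 in the tumor channel and 1204 in the control channel. On array 3 it was 201 in the tumor channel and 6 in the control channel, so the control level there lay close to the floor. Whether the higher control signals on arrays 2, 7 and 8 came from the liver RNA or from the bright Cy5 signal beside them was not tested.

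Adrenal cortex markers were read beside Akr1b7 because the gene is a marker of that tissue. Of 8 adrenal markers, 2 to 5 were above background in the tumor channel and 2 to 7 in the control channel. Their summed level was 1110 to 15200 in the tumor channel and 1420 to 9500 in the control channel. Cyp11a1, the side-chain cleavage enzyme of cholesterol, was singled out from the list after its values had been seen. It reached 13.53, 10.79 and 12.16 in tumors 2, 7 and 8 and 10.35, 7.99 and 9.60 in the controls on those arrays. On the other 5 arrays it lay between 5.88 and 6.44 in tumor and between 5.87 and 6.12 in control liver. The same 3 arrays were therefore high in both genes and both channels. The ratio of Cyp11a1 was 1.12 ± 1.45 and did not pass (adjusted p = 0.0540 by limma).

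Other adrenal markers did not all move with it. Star, the cholesterol carrier of steroid-making cells, was at 8.32 and 8.95 in tumors 2 and 7, against 6.23 to 6.97 in the other tumors. Cyp11b1, which makes corticosterone, was near background in tumors 2 and 7, at 5.99 and 5.80, and Mc2r, the receptor for corticotropin, lay at 5.82 and 5.76. On array 8, 7 of the 8 adrenal markers were above background in the control channel, among them Cyp11b1 at 9.10 and Hsd3b1 at 11.25. Of 4 adrenal markers that could be tested, 0 were called by limma, with 1 higher and 1 lower at an unadjusted p under 0.05. Without array 8 the log2 ratio of Akr1b7 was 3.48 (adjusted p = 0.00176 by limma). The part of adrenal RNA in the ratios of the other arrays was not tested.

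**Figure D2:**
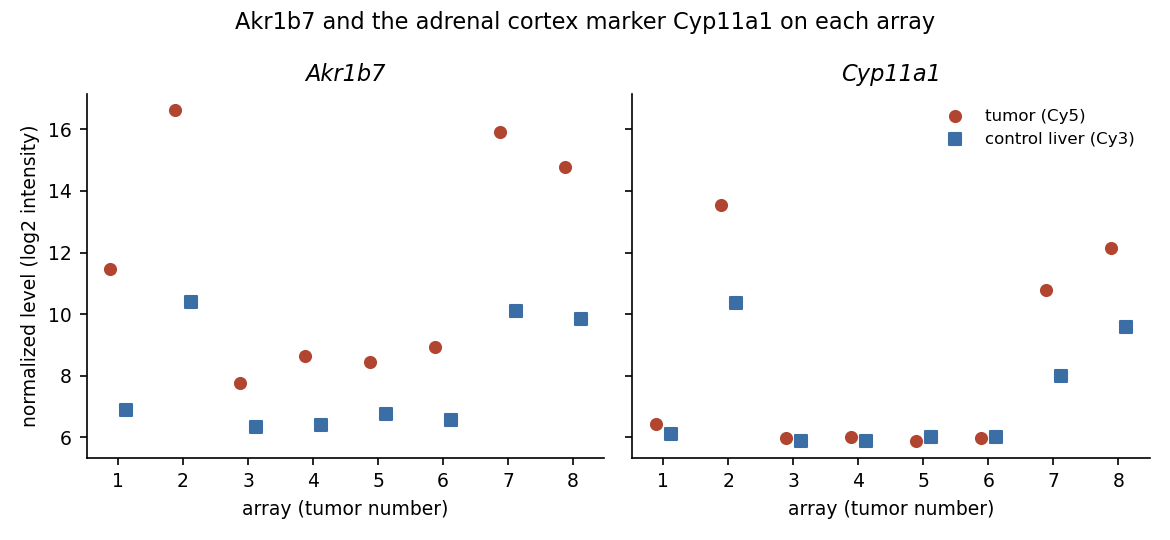
Normalized level (log2 intensity) of Akr1b7 on the left and of the adrenal cortex marker Cyp11a1 on the right, by array; circles are tumor (Cy5) and squares control liver (Cy3). Both genes are high on arrays 2, 7 and 8 in both channels, and Akr1b7 is higher in tumor than in control on each of the 8 arrays.

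By likeness of the ratios over the 8 arrays, the 5 genes closest to Akr1b7 among 11221 genes above background everywhere were Chd1, Agt, Idnk, Tent5a and Mag, at Pearson r of 0.97 to 0.99. These values describe arrays that split into 2 clusters of Akr1b7 ratios and carry no test. The offset draws the Akr1b7 ratios of arrays 1 and 3 to 6 toward 0, and its part in this likeness was not tested. None of the 5 genes shared the size of the Akr1b7 change, with mean log2 ratios from -0.30 (Idnk) to 0.62 (Tent5a).

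Akr1b8 reduces aldehydes from lipids and retinaldehyde, and is known in mouse as the gene nearest in function to human AKR1B10. Its level averaged 12.31 and ran from 11.19 to 13.92 in tumors, against an average of 10.57 and a range of 9.99 to 11.03 in control liver. The lowest tumor thus lay above the highest control, although the margin was small. Tumors 2, 7 and 1 had the highest ratios, at 2.89, 2.69 and 2.08, and tumor 4 the lowest, at 0.90. This gave a mean log2 ratio of 1.74 ± 0.76 (SD, n = 8), or 3.34-fold (adjusted p = 2.58e-04 by limma). It was 1.90 in row 1 of the slide and 1.58 in row 2.

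Akr1b3 encodes aldose reductase, which turns glucose into sorbitol in the first step of the polyol pathway. Its level was 10.54 to 12.13 in tumors with a median of 11.31, against 9.95 to 10.56 with a median of 10.26 in control liver. Each tumor was higher than the control on its array, by 0.25 in tumor 8 to 2.14 in tumor 1, but the tumor range began just below the highest control. The mean log2 ratio was 0.98 ± 0.65 (1.97-fold, adjusted p = 0.00311 by limma), just short of the 2-fold required. A second, dimmer probe of the gene gave 1.07 ± 0.77. The call therefore depends on the processing: it was made with the mean of both probes (1.02) and with the processed signals of the files (1.09). It was 1.35 in row 1 of the slide (adjusted p = 0.0130 by limma) and 0.61 in row 2, where the p also missed the threshold (adjusted p = 0.0734 by limma).

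Akr1a1, the aldehyde reductase that reduces glucuronate on the mouse route to vitamin C, lies apart from the others on chromosome 4. Its level was 14.03 to 14.80 in tumors, with a median of 14.38, against 14.38 to 14.90 with a median of 14.70 in control liver. Tumor was below control on 7 of 8 arrays, and the groups overlapped. On average the log2 ratio was -0.31 ± 0.24 (adjusted p = 0.0185 by limma), a difference of 1.24-fold that is too small for a call.

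Akr1c14 is a 3-alpha-hydroxysteroid dehydrogenase, which inactivates steroids such as dihydrotestosterone. Its level in tumors was 9.80 at the lowest, 10.24 at the median and 11.01 at the highest, against 11.01, 12.16 and 12.66 in control liver. The highest tumor and the lowest control just overlapped, and on each array the tumor was lower by more than 2-fold. Tumors 6, 8 and 7 had the deepest ratios, at -2.29, -2.24 and -2.20, and tumor 2 the shallowest, at -1.15. The control channel of arrays 1 and 2 was the lowest, at 11.01 and 11.22, against at least 12.06 on the other arrays. The mean log2 ratio was -1.70 ± 0.50 (SD, n = 8), which is 3.24-fold lower in tumor (adjusted p = 3.62e-05 by limma). It was -1.34 in row 1 of the slide, which holds tumors 1 to 4, and -2.06 in row 2, where 3 of the 4 arrays had the deepest ratios.

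Akr1c12 and Akr1c13 encode closely related dehydrogenases that prefer NAD. Akr1c12 was at 11.47 to 12.30 in tumors with a median of 11.60, against 11.69 to 12.31 with a median of 12.04 in control liver. Its mean log2 ratio was -0.35 ± 0.28 (adjusted p = 0.0186 by limma), below 0 on 7 of 8 arrays and under the size of a call. Akr1c13 was at 13.83 to 14.81 in tumors with a median of 14.16, against 14.01 to 14.64 with a median of 14.40 in control liver. Its mean log2 ratio was -0.21 ± 0.41 and did not pass (adjusted p = 0.217 by limma). In both genes tumor 3 was the single tumor above its control, by 0.13 in Akr1c12 and by 0.60 in Akr1c13.

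Akr1c19, another member that works as a dehydrogenase with NAD, had a larger spread of ratios than Akr1c12 and Akr1c13. It was at 10.74 to 12.67 in tumors with a median of 11.22, against 11.12 to 12.60 with a median of 12.03 in control liver. Tumors 5 and 6 had the lowest ratios, at -1.57 and -1.51, while tumors 3 and 8 lay above 0, at 0.37 and 0.06. Over the 8 arrays the log2 ratio was -0.56 ± 0.72 and did not pass (adjusted p = 0.0598 by limma).

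**Figure D3:**
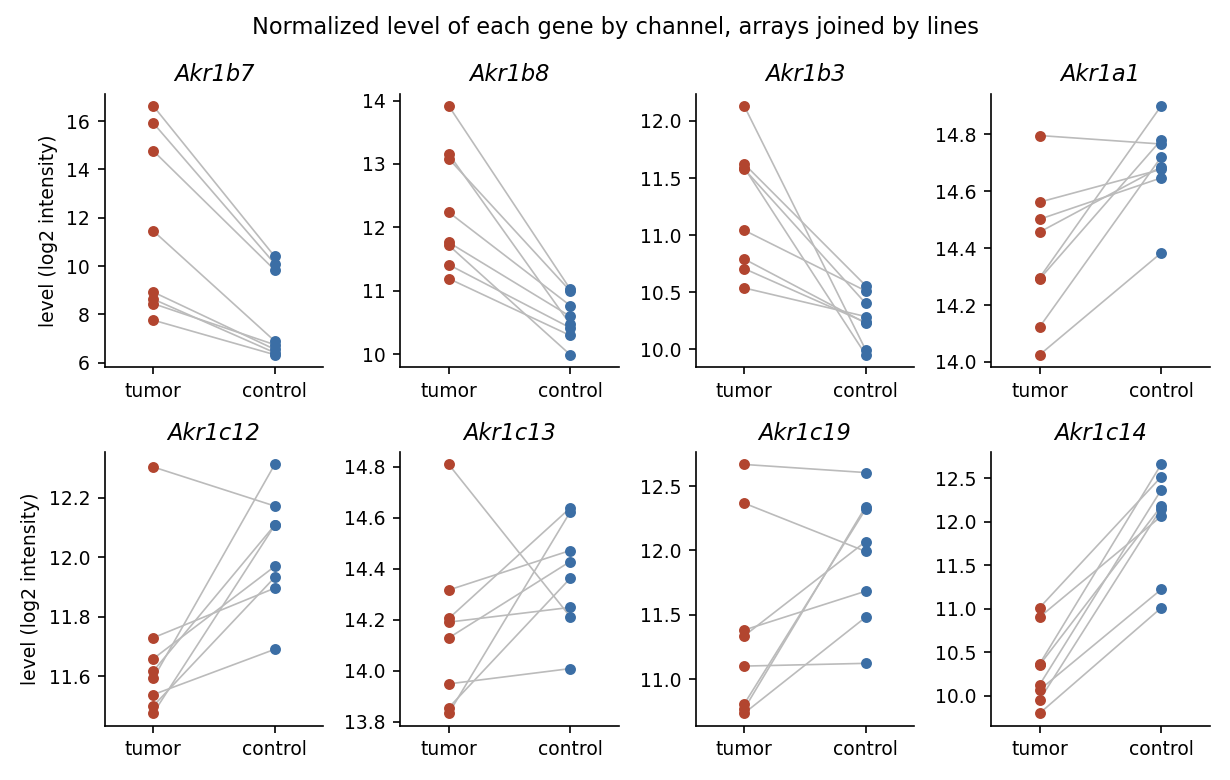
Normalized level (log2 intensity) of 8 Akr1 genes, with tumor on the left and control liver on the right of each panel; lines join the 2 channels of 1 array, and each panel has its own axis. All lines of Akr1b7, Akr1b8 and Akr1b3 are higher in tumor, all lines of Akr1c14 are lower in tumor, and the other panels hold lines of both directions.

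The genes lie in clusters. On chromosome 6 the gene order is Akr1b3, Akr1b8, Akr1b10, Akr1b7 and Akr1d1. On chromosome 13 it is Akr1c14, Akr1c18, Akr1c13, Akr1c19, Akr1c12, Akr1c6, Akr1c20, Akr1c21 and Akr1e1. Differences in log2 ratio between consecutive members of the 8 measured genes in this order were compared over the 8 arrays by an exact two-sided test that flips signs, for 5 pairs chosen after the data had been seen. In 2 of the pairs another Akr gene lies between, which is Akr1c18 for Akr1c13 and Akr1c14 and Akr1b10 for Akr1b7 and Akr1b8. These were the 2 pairs that passed, and the 3 pairs with no Akr gene between them missed the threshold. The smallest p that 8 arrays allow is 0.00781.

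Akr1c13 exceeded Akr1c14 by 1.48 ± 0.56 on 8 of 8 arrays (exact p = 0.00781, adjusted over 5 pairs 0.0391). Akr1b7 exceeded Akr1b8 by 1.92 ± 1.39 on 7 of 8 arrays (exact p = 0.0156, adjusted 0.0391). With 1 array left out, each of these adjusted values missed the threshold in 7 of 8 cases, as 7 arrays allow few small p-values. Akr1b8 exceeded Akr1b3 by 0.76 ± 0.63 on 6 of 8 arrays and missed the threshold (exact p = 0.0312, adjusted 0.0521). The difference of Akr1c19 and Akr1c13 was -0.34 ± 0.71 (exact p = 0.180, adjusted 0.225), and that of Akr1c12 and Akr1c19 was 0.21 ± 0.70 (exact p = 0.422), both within the spread between arrays.

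**Figure D4:**
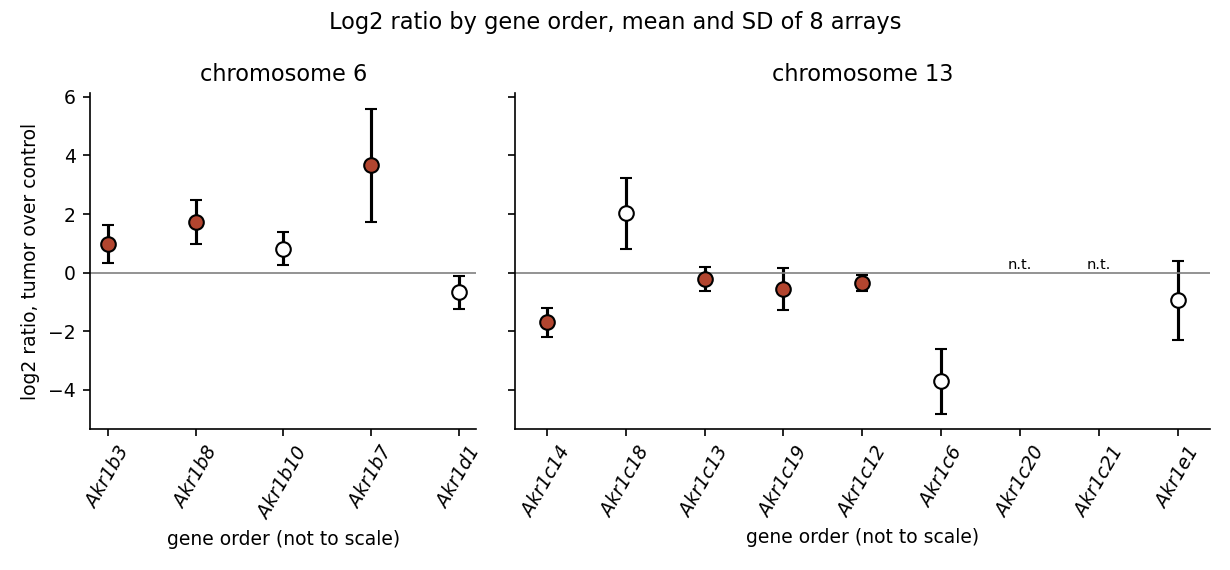
Mean log2 ratio of tumor over control (± SD over 8 arrays) for Akr genes in their order on chromosomes 6 and 13; filled points are the genes described here, open points other family members, and n.t. marks genes with no tested probe. On chromosome 13 the ratios run from -3.71 in Akr1c6 to 2.03 in Akr1c18, with Akr1c12, Akr1c13 and Akr1c19 between -0.56 and -0.21.

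Of 8 other aldo-keto reductase genes, 6 were tested, with 1 higher, 1 lower and a median log2 ratio of -0.74. Akr1c18, which inactivates progesterone, was higher by 2.03 ± 1.21 (adjusted p = 0.00143 by limma). Its net control signal was only 20 to 45 on arrays 2, 3 and 5 to 8. These values lay below the offset of 50, which draws ratios there toward 0. Akr1c6, a 17-beta-hydroxysteroid dehydrogenase of mouse liver, was lower, at -3.71 ± 1.11 (adjusted p = 2.69e-05 by limma). The pair thus moved in opposite directions within the same cluster as Akr1c14. Akr1b10 (0.82 ± 0.56), the bile acid synthesis enzyme Akr1d1 (-0.68 ± 0.57), Akr1e1 (-0.95 ± 1.35) and the aflatoxin aldehyde reductase Akr7a5 (-0.80 ± 0.53) did not pass both thresholds. Akr1c21 and Akr1cl were too dim to be tested. Probes in a cluster of like genes can pick up more than 1 transcript, and no probe sequences were used here, so this was not tested.

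Across the 8 tumors, Akr1c12 and Akr1c13 varied together. Of 28 pairs of members, 21 were open to a test, since pairs with Akr1b7 fall into its separate clusters. This pair alone passed, with Pearson r = 0.97 (exact permutation p = 9.92e-05, adjusted 0.00278) and Spearman rho = 0.95 (exact permutation p = 0.00114, adjusted 0.0319). Without the 2 arrays farthest from the median of Akr1c12, r was 0.94. The relation lost its call without tumors 7 and 8, which leaves 6 arrays. Both ratios of an array share its labelling, its control RNA and the dye. Their promoter windows shown above are nearly the same, and whether their probes share signal was not tested. A row of the slide holds 4 arrays, too few for a value within rows.

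The mean ratio of 24 NRF2 target genes, none of them a member, was set beside the 8 genes. This mean was 2.08 in tumor 3, between 1.52 and 1.69 in tumors 1, 2, 5 and 6, and between 0.93 and 1.02 in tumors 4, 7 and 8. Of 7 relations open to a test, 2 passed by Pearson's r. Akr1c12 had r = 0.91 (exact permutation p = 0.00293, adjusted 0.0234) and rho = 0.83 (exact permutation p = 0.0154, adjusted 0.123). Akr1c13 had r = 0.83 (exact permutation p = 0.00781, adjusted 0.0312) and rho = 0.71 (exact permutation p = 0.0576, adjusted 0.230). Without tumors 7 and 8, the 2 arrays farthest from the median of the NRF2 mean, r was 0.81 for Akr1c12 and 0.71 for Akr1c13. Tumor 3, the highest in both genes, was kept in these values. The ranks did not pass, and without tumor 3, 6, 7 or 8 neither relation passed, so both rest on few arrays. Akr1c12 and Akr1c13 varied together (Pearson r = 0.97), so their 2 relations are not independent. The members and the NRF2 mean also share each array's labelling, control RNA and dye.

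**Figure D5:**
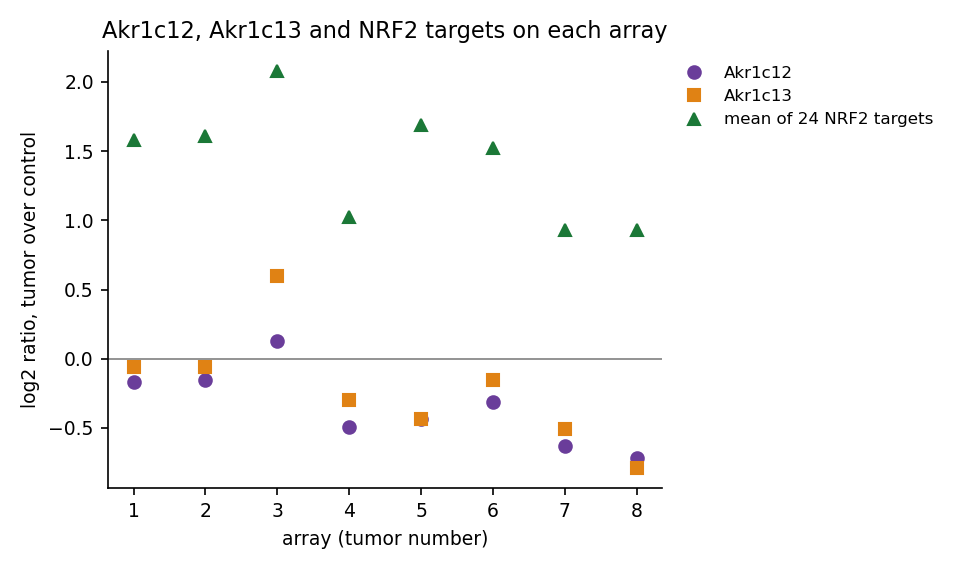
Log2 ratio of tumor over control on each of the 8 arrays for Akr1c12, Akr1c13 and the mean of 24 NRF2 targets. Tumor 3 is the highest and tumors 7 and 8 are the lowest in all 3 series. Both Akr1c genes lie below 0 on all arrays but that of tumor 3.

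The NRF2 targets themselves were largely higher in tumor: 14 of 24 rose, 0 fell (0 lower at an unadjusted p under 0.05 by limma) and the median log2 ratio was 1.22, against 0.03 over all genes. The carbonyl reductase Cbr3 rose by 4.69 ± 0.29, the glutathione transferase Gsta1 by 4.13 ± 0.89 and the efflux pump Abcc4 by 3.05 ± 1.21. No control channel had the cystine transporter Slc7a11 well above background, and its level in tumor was at least 8.34-fold higher (adjusted p = 1.76e-04 by limma). The fold was taken against the lowest signal well above background, or the probe's own signal where that was higher, and is open to dye bias. Of 8 NRF2 regulators, 1 was higher, Maff (1.42 ± 1.00), and 0 lower. At an unadjusted p under 0.05 by limma, 5 of them were higher and 1 lower, and their median log2 ratio was 0.47. The ratio of the NRF2 gene itself, Nfe2l2, was 0.45 ± 1.24 (adjusted p = 0.337 by limma). That of its inhibitor Keap1 was -0.36 ± 0.31 (adjusted p = 0.0214 by limma), too small for a call.

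Other enzymes that act on carbonyl compounds changed in both directions. Of 12 genes of carbonyl reductases and related enzymes, 3 rose and 5 fell, with a median log2 ratio of -0.99. Those that rose were Cbr3, Cbr1 (2.83 ± 0.31) and the prostaglandin and alkenal reductase Ptgr1 (2.55 ± 0.73), of which Cbr3 and Ptgr1 are also on the NRF2 list. Those that fell were Dcxr (2.64-fold lower in tumor), Cbr4, Dhrs1, Dhrs4 and Ptgr2.

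Genes that act with Akr1b3 in the polyol and fructose pathway were read beside it. Of 7 such genes, 0 were higher (0 at an unadjusted p under 0.05 by limma) and 3 lower, with a median of -1.05. Sord, which turns sorbitol into fructose, fell by 1.46 ± 0.59, the fructose transporter Slc2a5 by 1.60 ± 0.81 and Fbp1, a gluconeogenic enzyme, by 1.57 ± 1.30. Of the 8 genes that share the glucuronate and vitamin C route with Akr1a1, 2 were higher and 3 lower, with a median of -0.20. Miox, which opens myo-inositol to glucuronate, rose by 1.53 ± 0.73. Regucalcin (Rgn), which acts as gluconolactonase after Akr1a1, fell by 4.58 ± 1.70, xylulose reductase (Dcxr) was 2.64-fold lower, and Gulo, the last enzyme of the route, fell by 1.39 ± 1.37.

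Of 12 genes of prostaglandin metabolism, in which Akr1b3 and Akr1b7 can make prostaglandin F, 11 were tested, with 2 higher, 1 lower and a median of 0.07. The prostaglandin-degrading enzyme Hpgd fell by 1.71 ± 1.01 and the synthase Ptgds rose by 1.37 ± 0.65. No control channel had the synthase Hpgds well above background, and its level in tumor was at least 2.03-fold higher (adjusted p = 3.83e-04 by limma). Of 8 targets of LXR, the sterol receptor that is known to act on Akr1b7 in mouse gut, 0 were called by limma. At an unadjusted p under 0.05, 1 of them was higher and 1 lower, and their median was -0.09.

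Cell type markers moved beside these genes, and their part in the Akr1 results was not tested. Of 9 tested hepatocyte markers, 3 were lower (Serpina1a, Cps1 and Apoa1) and 0 higher (0 at an unadjusted p under 0.05 by limma). Of 7 stellate cell markers 5 were higher, of 7 bile duct markers 3 were higher, and of 6 tested macrophage markers 1 was higher and 3 lower. Of 6 endothelial markers 1 was lower. By limma at an unadjusted p under 0.05, 5 stellate markers were higher and 1 lower, and 6 bile duct markers higher and 1 lower. At the same limit 3 endothelial markers were lower and 0 higher. Of 11 gut epithelium markers, 6 were tested and 2 were higher, Vil1 (3.77 ± 1.22) and Krt20 (3.06 ± 2.21), while 5 or 6 of the list were above background in tumors and 3 or 4 in controls. The summed level of the gut list was 5180 to 49500 in the tumor channel and 11100 to 48000 in the control channel. The members of this list did not vary alike between tumors. In tumors 2 and 7, Fabp2 was at its lowest (11.10 and 11.49) and Tff1 at its highest (7.95 and 8.09).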

How the data were processed

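The values used were the median signal and median background intensity of each spot and channel in the authors' deposited scanner files, made per the file headers with Agilent Feature Extraction 10.9.1.1 (10.9 in the submitters' processing notes). In the authors' deposited log10 ratios red stands over green, which served to check the direction. Signals were corrected by normexp (offset 50) and normalized by loess within arrays, with control and outlier spots at weight 0 (limma 3.58.1 in R 4.3.3). Levels are log2 intensities after loess and Aquantile. Probes were named through their accession and RefSeq symbols. Testing needed a probe well above background on 4 or more arrays in 1 channel or both (29302 probes), and the brightest tested probe stood for its gene. Ratios were tested against 0 with limma's lmFit and eBayes.

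Genes named are all 9 members, all other tested Akr genes, up to 4 called genes of each list with the largest ratios and the 5 nearest patterns of the member with the largest ratio; others are named to complete a count or as a regulator. The members and lists were chosen with earlier results of these data known. The procedure was tested on simulated data. Alternatives were other background corrections, normalizations, filters and variance models, array weights, the slide row as a block or alone, and arrays left out or averaged. Promoters were aligned with Biopython 1.88 under Python 3.11.15. The targeted gene, miR-122, had no named probe and is not analysed here. With 8 arrays, their number limits how precise any value is, and 0 spots were saturated.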

Additional observations from a re-analysis of the deposited data

Results flagged for a closer look

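In 30 groups of 8 values (the ratio and both channel levels of the 8 Akr1 genes, and the ratio of 6 other Akr genes), the gap between the outermost value and its neighbour was compared with Dixon's limit of 0.526 of the range. Chance passes that limit in about 1 of 20 groups, and 2 of these 30 passed. The tumor level of Akr1c12 in tumor 3 was 12.30, against 11.47 to 11.73 in the other tumors. The log2 ratio of Akr1e1 in tumor 3 was -3.92, against -1.20 to 0.62 on the other arrays.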

How the results depend on the processing

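The calls of Akr1b7, Akr1b8 and Akr1c14 held under all 23 alternatives, at log2 ratios of 2.96 to 4.41 in Akr1b7 and -2.06 to -1.34 in Akr1c14; with 1 array left out Akr1b8 was 1.58 to 1.86. Akr1b3 passed 2-fold with an offset of 16 (1.01), with processed signals (1.09), with the mean of its probes (1.02), without tumors 7 and 8 (1.07) and in row 1 of the slide alone (1.35), but was 0.61 in row 2 alone (adjusted p = 0.0734); with 1 array left out it was 0.81 to 1.08. Akr1c13 reversed to 0.045 in row 1 alone, and Akr1c12 minus Akr1c19 to -0.0173 with processed signals. Of the differences between consecutive members, tested after the data were seen, Akr1b7 minus Akr1b8 missed the threshold without tumors 7 and 8 (1.46) and with arrays 1 and 2 averaged (1.78), and Akr1c13 minus Akr1c14 likewise (1.45 and 1.53). With 1 array left out they were 1.70 to 2.23 and 1.35 to 1.57. All these settings leave fewer arrays, which allow few small p-values, so a miss there cannot show that a difference weakened. Akr1b8 minus Akr1b3 passed with the mean of probes (0.72). Members correlated with the NRF2 mean numbered 0 to 2 with 1 array left out, 0 without tumors 7 and 8 and 1 with arrays 1 and 2 averaged; correlated pairs numbered 0 without tumors 7 and 8.

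Row 2 alone called 848 genes higher, and processed signals called 1532 lower. With processed signals, list counts were 1 higher (glucuronate route), 1 higher and 1 lower (adrenal), 1 lower (bile duct), 2 lower (endothelium) and 4 higher (gut). An offset of 16 gave 1 higher (adrenal), 1 lower (bile duct), 2 lower (endothelium) and 4 higher (gut), and no background subtraction gave 1, 1 and 4 for the adrenal, bile duct and gut lists. Row 2 alone gave 1 higher for the glucuronate, LXR, gut and prostaglandin lists, 1 lower for the bile duct, hepatocyte and polyol lists, 0 higher for macrophages and NRF2 regulators, 3 higher for stellate cells and 0 lower for prostaglandins. Row 1 alone gave 1 higher for LXR targets and 2 for NRF2 regulators. Array weights, and leaving out tumors 7 and 8, gave 5 higher for bile duct and 2 lower for other Akr genes. The filter on all 8 arrays and arrays 1 and 2 averaged each gave 1 higher for prostaglandins, and the slide row as a block gave 1 higher for adrenal. With 1 array left out, counts higher were 1 to 3 (glucuronate), 0 to 1 (LXR, adrenal) and 1 to 2 (prostaglandin), and 1 to 2 other Akr genes were lower. The cause of these changes was not tested, apart from the fewer arrays in some settings. Both channels of an array form 1 ratio, so the tests compared tumor and control within arrays. No further pairing was possible because the labels give a single numbered group. Dim control signals limit Akr1b7 on arrays 1 and 3 to 6, and Akr1c18 on arrays 2, 3 and 5 to 8.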
